A study of Mus musculus with 36 samples.

Results

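Respiratory complexes II, III, IV and V, with cytochrome c, were followed through 46 nuclear genes in mouse hearts in which an active Akt1 was switched on and off. The genes were those whose single platform symbol was Sdha, Sdhb, Sdhc, Sdhd, Cyc1 or Cycs, or started with Uqcr, Cox4, Cox5, Cox6, Cox7, Cox8 or Atp5. Of 48 genes with such a symbol, 46 had a probe set whose mean signal over the 18 arrays of its chip reached 20% of the trimmed mean of that chip, out of 14650 genes that passed the same limit. The 2 others were Cox6b2, at 19.4% of the trimmed mean, and Cox7c, at 18.0%, and the members just inside the limit were Cox7b2, at 39.7%, and Cox4i2, at 55.2%. The members were 4 genes of complex II, 9 of complex III, the cytochrome c gene Cycs, 15 of complex IV and 17 of complex V.

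Total RNA of 18 hearts was hybridised to the Affymetrix chips 430A and 430B, 36 arrays in all, each heart from an individual mouse. All animals carried both transgenes of the strain written as Tet-myrAkt1/?MHC-tTA, in which a tetracycline-responsive Akt1, kept active at the membrane by a myristoyl tag, depends on a transactivator driven by a myosin heavy chain promoter. In this order, 4 hearts were induced for 2 weeks and taken at 14 weeks of age, and 4 were repressed for 2 days after such an induction, at 14 weeks and 2 days. Another 3 hearts were induced for 6 weeks and taken at 18 weeks, and 3 were repressed for 2 weeks after such an induction, at 20 weeks. The last 4 were taken at 12 weeks, before induction. All animals are labelled male. The groups hold no mice without the transgenes, and time since induction and age cannot be told apart. The promoter in the strain name is the one commonly used to restrict a transgene to heart muscle cells, while the RNA came from the whole tissue. In such bulk RNA, fewer cells of a type and less RNA per cell cannot be told apart.

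Complex II oxidises succinate and belongs to both the citric acid cycle and the respiratory chain. Complex III passes electrons from ubiquinol to cytochrome c, complex IV passes them from cytochrome c to oxygen, and the proton gradient that complexes III and IV help to build drives ATP synthesis by complex V. Heart muscle, which contracts without rest, is one of the tissues richest in these complexes. Complexes III, IV and V also hold subunits encoded in mitochondrial DNA, which were not analysed here.

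Akt1, the gene of the transgene and of its endogenous counterpart, gave 2878 ± 645 signal units in hearts induced for 2 weeks and 2365 ± 542 in those induced for 6 weeks, against 548 ± 69.7 before induction (SD, n = 4, 3 and 4). It was 718 ± 21.8 in hearts repressed for 2 days (n = 4) and 753 ± 106 in those repressed for 2 weeks (n = 3), so its signal followed the labels. Hearts 3 and 4 before induction had Xist signals of 2518 and 2170.2, against at most 92.8 in the 16 others for that probe set, which goes against the label male. The counts of members against the hearts before induction are therefore also given without both. The ratio of 3′ to 5′ Actb signal, a sign of RNA integrity, was 3.71 in heart 3 of the 6-week induction on chip 430A, against 0.952 to 1.92 in the hearts of the 4 other groups. Heart 1 before induction stood high for many members, and the members of complex V took 1.76% of the chip signal there, against 1.49% to 1.54% in the other 3 hearts of that group. Markers of heart muscle cells all passed the limit (8 of 8), with summed signals of 150300 to 262500 after 2 weeks of induction and 139700 to 179500 after 2 days of repression. The sums were 127400 to 196700 after 6 weeks of induction, 150100 to 185400 after 2 weeks of repression and 182000 to 238100 before induction. Most member probe sets were very bright, with 41 of the 45 members measured on chip 430A among its brightest 5% of probe sets, and how far signals are compressed at that end was not tested.

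Changes are differences of log2(signal + offset), the offset being 10% of the trimmed mean of the chip, with the standard error (SE) of a limma model over all probe sets of the chip. A gene is given by its brightest passing probe set on chip 430A, or on chip 430B where none passes on 430A, which was so for 1 member, Cox7b2. Calls and counts are those of that probe set unless another is named, and a gene is called where the Benjamini-Hochberg adjusted p was under 0.05. After 2 weeks of induction, 1 of the 46 members was lower and 0 were higher than before induction, where 2.90% of all genes tested were lower and 3.69% higher. The median change of the members was 0.02, against -0.02 over all genes tested. After 6 weeks, 13 members were lower and 1 was higher than before induction, against a background of 8.14% lower and 7.58% higher, with a median of -0.20 against -0.05. Between 6 and 2 weeks of induction 5 members were lower and 0 higher (background 2.82% and 2.35%), with a median of -0.19 against -0.03.

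In hearts repressed for 2 days, 11 members were lower and 1 was higher than in hearts induced for 2 weeks (background 5.36% and 5.23%), with a median of -0.22 against -0.00. In hearts repressed for 2 weeks, 5 members were higher and 1 was lower than in hearts induced for 6 weeks (background 7.19% and 5.53%), with a median of -0.06 against 0.03. Against the hearts before induction, 4 members were lower and 0 higher after 2 days of repression (background 1.81% and 2.00%, median -0.26), and 2 were lower and 0 higher after 2 weeks of repression (background 1.21% and 1.50%, median -0.18). The medians of all genes tested were -0.01 and -0.00 there. Comparisons that share a group of hearts are not independent of each other.

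**Figure D1:**
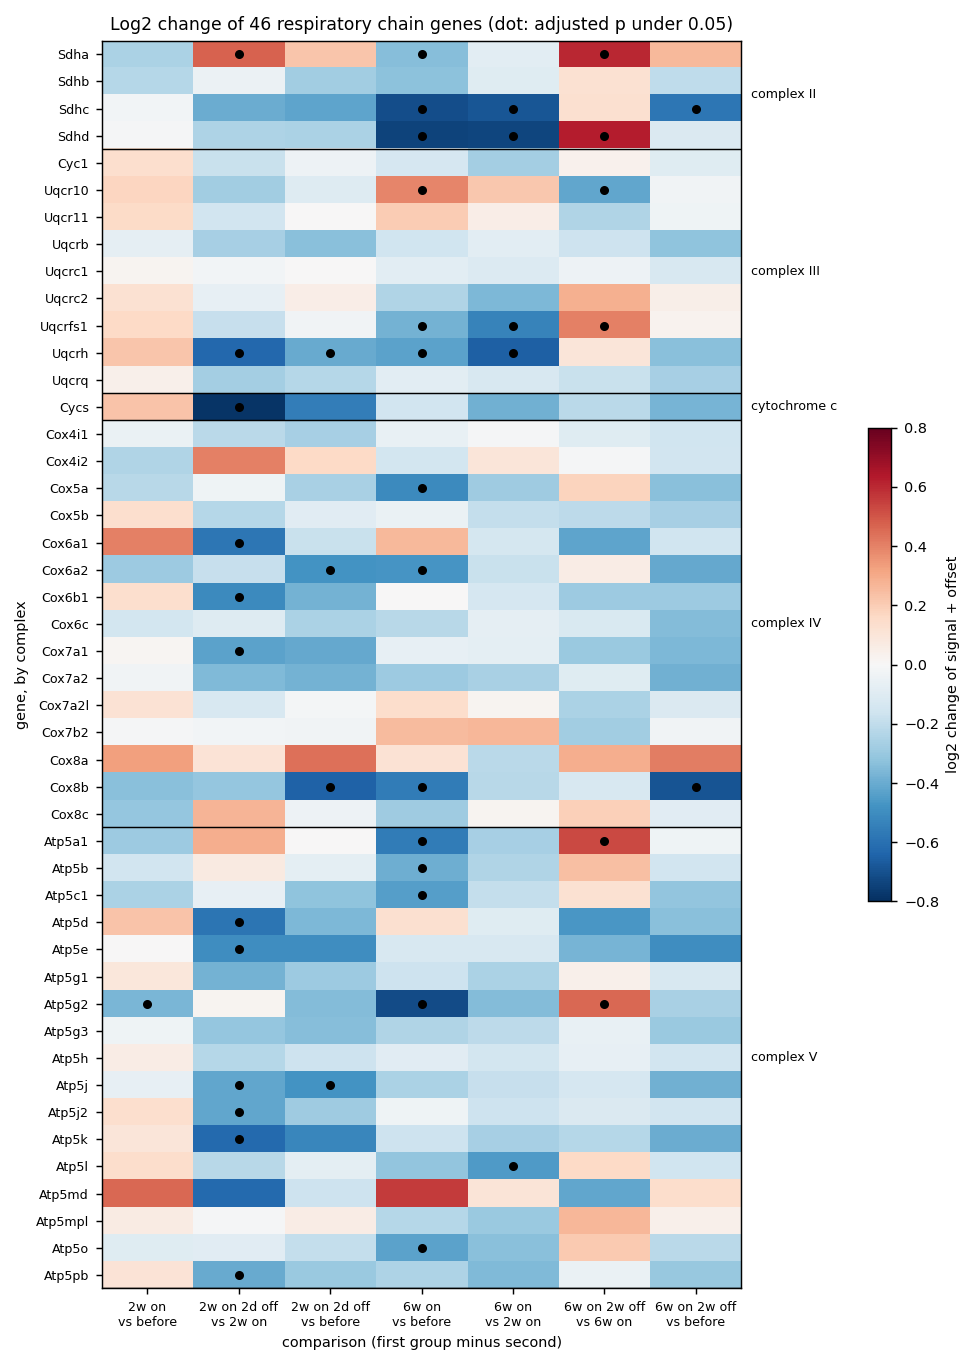
Log2 change of each member (rows, by complex) in 7 comparisons (columns, first group minus second), red for higher and blue for lower, with a dot where the adjusted p was under 0.05. Of the dots, 11 lower and 1 higher lie in the column of 2 days of repression against 2 weeks of induction, and 13 lower and 1 higher in that of 6 weeks of induction against before.

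These counts rest on small changes and few hearts. Without both hearts with Xist signal, 7 members were called after 6 weeks of induction against before, 2 after 2 days of repression against before, 0 after 2 weeks of induction and 2 after 2 weeks of repression. The 7 were Atp5g2, Sdhc, Sdhd, Uqcrh, Cox5a, Cox6a2 and Cox8b, and of the 4 members called after 2 days of repression only Cox8b was still called. Without heart 3 of the 6-week induction, 6 were called against before and 2 against the hearts repressed for 2 weeks, and without heart 2 of that group 8 were called against before. Without heart 1 before induction the 6-week count was 9. Between 2 days of repression and 2 weeks of induction, 5 were called when heart 1 of either was left out, and 7 with heart 2 of either left out, or heart 4 of the repressed group. Between 6 and 2 weeks of induction 3 were called without heart 2 of the 2-week group and 8 without its heart 4, and between 2 weeks of repression and 6 weeks of induction 3 without heart 1 and 2 without heart 3 of the repressed group. Of the counts against before, that of 2 days of repression was 1 without heart 1 of either group and 2 without heart 2 or 3 of either group or heart 4 of the repressed group. That of 2 weeks of repression was 0 without its heart 1 or 3 and 1 without heart 1 or 2 before induction. That of 2 weeks of induction was 0 without heart 2 or 4 before or heart 1, 3 or 4 induced. Scaling the arrays to a common median moved the median of all genes by 0.17 in the comparison of 6 weeks of induction with before, and 2 members were then lower and 1 higher there. With that scaling 0 were higher and 13 lower after 2 days of repression against 2 weeks of induction, and 1 higher and 1 lower after 2 weeks of repression against 6 weeks of induction. Quantile normalization gave 2 higher and 2 lower for 2 days of repression against before, and 1 higher and 1 lower for 2 weeks of induction against before. The members' medians moved with the scaling as well. At 6 weeks of induction against before the median was 0.01 with arrays scaled to a common median, with 23 members positive and 23 negative, and -0.08 with quantile normalization, while the medians of all genes were 0.12 and 0.02. At 2 days of repression against 2 weeks of induction it was -0.35 and -0.04 in these 2 scalings, with medians of -0.04 and -0.03 over all genes, and with quantile normalization 18 members were positive and 28 negative. Against before, quantile normalization gave -0.03 after 2 days and -0.05 after 2 weeks of repression, and common-median scaling gave -0.28 and -0.12.

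Complex II has 4 subunits, the flavoprotein Sdha, which binds succinate, the iron-sulfur protein Sdhb, and the membrane anchors Sdhc and Sdhd. By its brightest probe set, Sdha rose in both repressed groups relative to the induced groups before them, and Sdhc and Sdhd fell after 6 weeks of induction. Sdha was lower after 6 weeks of induction than before.

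Sdha gave 8629.5, 8879, 9263 and 9061 signal units in the hearts repressed for 2 days, against 5544, 6808, 6715 and 6774 in those induced for 2 weeks. The groups did not overlap, and heart 1 of the induced group was the lowest (log2 change 0.47 ± 0.10 SE, adjusted p = 0.00446). It gave 9267, 8762 and 9635 after 2 weeks of repression, against 7029, 6157 and 5137 after 6 weeks of induction. Every repressed heart was again above every induced one (log2 change 0.60 ± 0.12 SE, adjusted p = 0.00214). Both calls held when any single heart was left out, with adjusted p up to 0.0164 and 0.0113. The first was lost with arrays scaled to a common median, and the second with only the groups compared in the fit. Before induction the values were 7897, 7028, 8089 and 7729, above all hearts induced for 2 weeks but overlapping with those induced for 6 weeks. The drop at 6 weeks (log2 change -0.34 ± 0.11 SE, adjusted p = 0.0367) was not called without heart 1, 3 or 4 before induction or heart 2 or 3 of the induced group, at adjusted p of 0.0577 to 0.183. The change at 2 weeks of induction was -0.25 (adjusted p = 0.144). Against before, Sdha changed by 0.22 after 2 days of repression (adjusted p = 0.230) and by 0.26 after 2 weeks of repression (adjusted p = 0.212). Between 6 and 2 weeks of induction the change was -0.09 (adjusted p = 0.707). The other bright probe set of Sdha on chip 430A was not called at 2 days of repression (log2 change 0.28, adjusted p = 0.0851), at 2 weeks of repression against 6 weeks of induction (log2 change 0.17, adjusted p = 0.390) or at 6 weeks of induction against before (log2 change -0.13, adjusted p = 0.480), each change having the sign given above. A dim probe set of Sdha on chip 430B was called lower than before at 6 weeks of induction (log2 change -0.998, adjusted p = 0.0150). It was also called lower than before at 2 weeks of repression (log2 change -1.13, adjusted p = 0.0189). Its mean did not rise on repression. It was 69.25 after 2 days of repression, against 82.65 after 2 weeks of induction. After 2 weeks of repression it was 53.53, against 59.73 after 6 weeks of induction.

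Sdhc gave 2965, 2696 and 2795 signal units in hearts induced for 6 weeks, against 6067, 4779.8, 4065 and 3894 before induction. All 3 induced hearts were below all 4 others (log2 change -0.71 ± 0.15 SE, adjusted p = 0.00277), and the call held under every alternative tried. The hearts induced for 2 weeks, at 3625, 5562, 4866 and 4374, were also all above those induced for 6 weeks (log2 change -0.68, adjusted p = 0.00992). In hearts repressed for 2 weeks the values were 2734, 3473 and 3105, still below every heart before induction (log2 change -0.58, adjusted p = 0.0387). That last call was lost without heart 1 or 2 before induction or heart 1 or 3 of the repressed group, at adjusted p of 0.0835 to 0.161. In hearts repressed for 2 days Sdhc gave 3537, 3368, 3448 and 3403, a narrow range below all hearts induced for 2 weeks (log2 change -0.40, adjusted p = 0.0515). Its change was -0.02 at 2 weeks of induction, -0.42 at 2 days of repression against before and 0.13 at 2 weeks of repression against 6 weeks of induction, with adjusted p of 0.942, 0.0794 and 0.621. A second bright probe set of Sdhc was also called lower at 6 weeks of induction against before (log2 change -0.67, adjusted p = 0.0272). It differed elsewhere, with changes of -0.51 at 2 weeks of induction (adjusted p = 0.110), -0.16 at 6 against 2 weeks of induction (adjusted p = 0.714) and -0.15 at 2 weeks of repression against before (adjusted p = 0.752), and was not called there. Its change was 0.52 at 2 weeks of repression against 6 weeks of induction (adjusted p = 0.113).

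Sdhd gave 3896, 4634 and 2563 signal units after 6 weeks of induction, against 7131, 5148, 5328 and 6811 before. The induced hearts were all lower, with heart 3, the heart of the high Actb ratio, the lowest (log2 change -0.74 ± 0.18 SE, adjusted p = 0.00699). Against 4982, 7965, 5969 and 5508 after 2 weeks of induction they were lower too (log2 change -0.73, adjusted p = 0.0188). The hearts repressed for 2 weeks gave 5702, 5099.6 and 5971, above every heart induced for 6 weeks (log2 change 0.63, adjusted p = 0.0284). Without heart 3 of the 6-week induction all 3 calls were lost. The second was also lost without heart 2 of the 2-week induction, and the third without heart 1 or 3 of the repressed group, with adjusted p of 0.0505 for the first, 0.0666 to 0.0878 for the second and 0.0649 to 0.167 for the third in these fits. In hearts repressed for 2 days Sdhd gave 4957, 5359.5, 4619 and 5315, overlapping with the hearts induced for 2 weeks (log2 change -0.25, adjusted p = 0.327). At 2 weeks of induction and at the 2 repressions against before its changes were -0.01, -0.26 and -0.11 with no call. A much dimmer probe set of Sdhd was called in none of these comparisons, with changes of -0.27 and -0.20 at 6 weeks of induction against before and against 2 weeks, and -0.10 at 2 weeks of repression against 6 weeks of induction.

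Sdhb was not called in any of the 7 comparisons. Its changes ran from -0.33 at 6 weeks of induction against before (adjusted p = 0.115) to 0.12 at 2 weeks of repression against 6 weeks of induction (adjusted p = 0.638), and heart 1 before induction, at 23373, was the brightest of all 18. Against before, 3 of the 4 genes of complex II were called lower after 6 weeks of induction, and the median change over the complex was -0.52. The background of genes lower in that comparison was 8.14%. Of these calls, those of Sdha and Sdhd were lost with arrays scaled to a common median, and only that of Sdhc held.

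**Figure D2:**
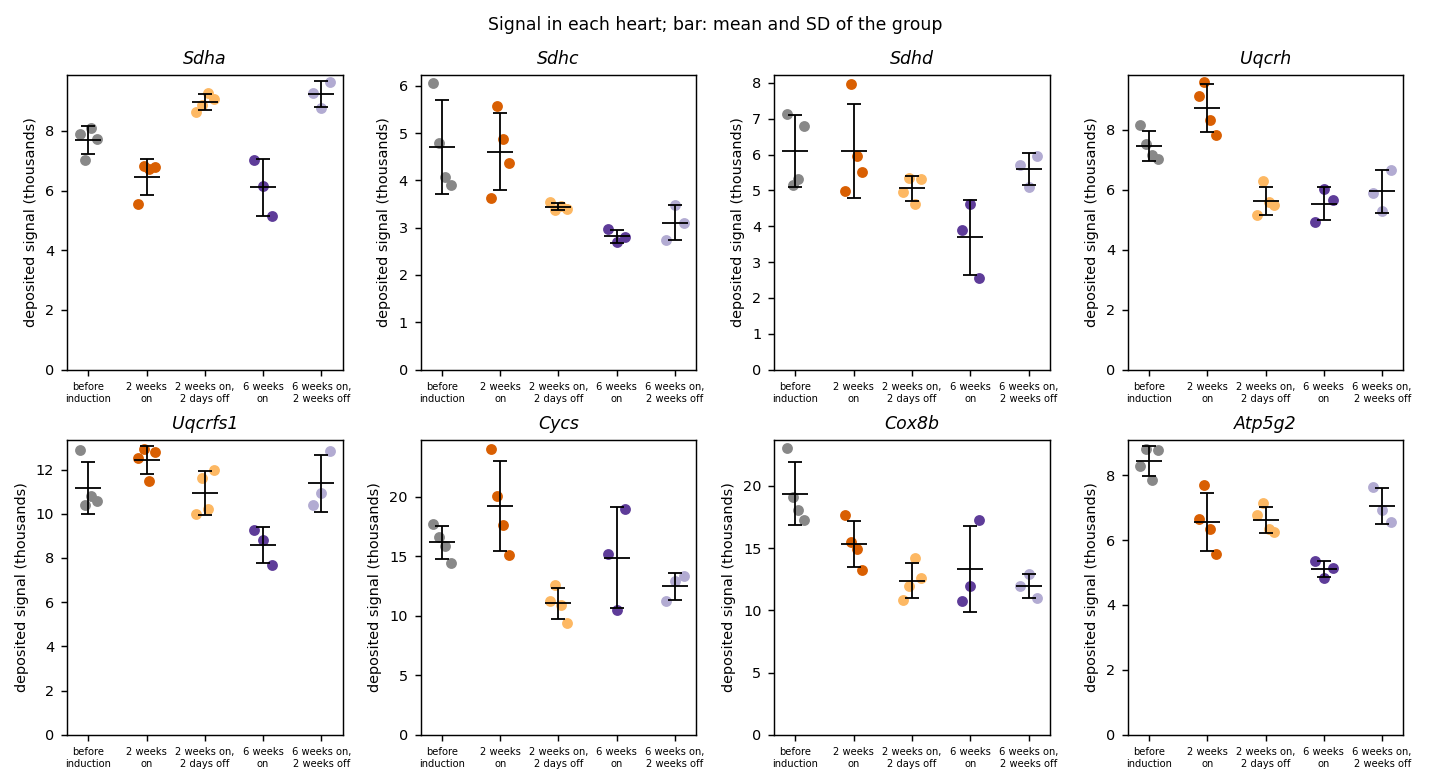
Deposited signal (vertical axis, signal units / 1000, from 0) of 8 members in each heart, with the groups in the order of the experiment from before induction to 2 weeks of repression; bars give the mean and SD. Sdha lies at 8629.5 or more in every repressed heart and at 7029 or less in every induced heart, and Atp5g2 is lowest in the 3 hearts induced for 6 weeks.

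The promoters of 3 called members are shown from RefSeq (GRCm38.p6), from 250 bases before to 50 after the start, 5′ to 3′. Sdha was higher after both repressions, Sdhd was lower after the long induction, and Uqcrh of complex III was lower after the short repression. These traits were partly shared. All 3 were called lower at 6 weeks of induction against before, and Sdhd as well as Sdha was called higher at the late repression. No difference between these genes was tested. Capitals mark matches, on either strand, to the NRF-1 motif GCGCANGCG, the ETS core CCGGAAG, the estrogen-related receptor site TCAAGGTCA and the TATA box TATAAA, motifs of factors known to act on respiratory genes and of the core promoter.
Sdha (chr13:74350191-74350490, minus strand): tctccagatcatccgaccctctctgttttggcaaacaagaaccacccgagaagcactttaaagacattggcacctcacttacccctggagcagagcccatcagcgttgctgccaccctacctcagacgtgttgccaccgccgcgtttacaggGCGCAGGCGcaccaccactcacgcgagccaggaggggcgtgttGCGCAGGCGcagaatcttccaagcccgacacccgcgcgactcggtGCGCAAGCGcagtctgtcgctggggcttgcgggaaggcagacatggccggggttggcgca
Sdhd (chr9:50603800-50604099, minus strand): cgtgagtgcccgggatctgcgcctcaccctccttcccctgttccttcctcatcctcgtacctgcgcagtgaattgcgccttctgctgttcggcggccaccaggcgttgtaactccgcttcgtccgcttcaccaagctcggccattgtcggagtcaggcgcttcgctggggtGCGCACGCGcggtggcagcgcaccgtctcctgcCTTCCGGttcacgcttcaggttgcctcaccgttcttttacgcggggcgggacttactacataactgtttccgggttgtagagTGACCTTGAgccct
Uqcrh (chr4:116075021-116075320, minus strand): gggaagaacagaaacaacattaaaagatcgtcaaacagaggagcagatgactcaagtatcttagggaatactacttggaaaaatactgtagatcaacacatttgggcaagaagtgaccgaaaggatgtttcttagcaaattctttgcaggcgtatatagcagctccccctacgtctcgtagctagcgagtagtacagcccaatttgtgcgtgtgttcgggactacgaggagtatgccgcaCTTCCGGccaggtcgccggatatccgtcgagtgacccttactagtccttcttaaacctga
The Sdha window holds the NRF-1 motif at 3 places and none of the other motifs. The Sdhd window holds 1 NRF-1 motif, 1 ETS core and 1 estrogen-related receptor site, and the Uqcrh window 1 ETS core. Of the 46 members, 34 had a promoter in the table. The NRF-1 motif was in 13 of the 34 (38.2%), against 9.63% of 17492 protein-coding genes with a promoter there. The ETS core was also in 13 (38.2%), against 12.9%, the estrogen-related receptor site in 2 (5.88%), against 0.377%, and the TATA box in 4 (11.8%), against 14.8%. No pair of these motifs overlapped in the windows shown. A match describes the letters and does not show binding.

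Complex III was measured through the core proteins Uqcrc1 and Uqcrc2, the catalytic subunits Cyc1, which carries a haem, and Uqcrfs1, the Rieske iron-sulfur protein, the hinge protein Uqcrh, and the small subunits Uqcrb, Uqcrq, Uqcr10 and Uqcr11. By its chip 430A probe set, Uqcrh fell after the 2-day repression and after the long induction, Uqcrfs1 was lower after 6 weeks of induction than in the 3 groups it was compared with, and Uqcr10 was higher after 6 weeks of induction than before and lower after 2 weeks of repression than after 6 weeks of induction. The share of all genes is given in brackets. Of the 9 genes 1 was lower at 2 days of repression against 2 weeks of induction (5.36%). At 6 weeks of induction against before 2 were lower and 1 higher (8.14% and 7.58%). At 6 against 2 weeks of induction 2 were lower (2.82%). At 2 weeks of repression against 6 weeks of induction 1 was higher and 1 lower (7.19% and 5.53%). At 2 days of repression against before 1 was lower (1.81%). Of the 9, 0 were called at 2 weeks of induction or at 2 weeks of repression against before, and the largest change was in both cases that of Uqcrh (0.22 and -0.33).

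Uqcrh, which helps cytochrome c dock on the complex, gave 5168, 6276, 5584 and 5480.0 signal units in hearts repressed for 2 days, against 9140.1, 9606, 8329.5 and 7827 in hearts induced for 2 weeks. The groups were well apart, with a gap between the brightest repressed and the dimmest induced heart (log2 change -0.63 ± 0.11 SE, adjusted p = 0.000820). The hearts repressed for 2 days were also all below those before induction, at 8145, 7511, 7172 and 7030.1 (log2 change -0.41, adjusted p = 0.0306). This call was lost without heart 1, 2 or 3 before or heart 1, 3 or 4 repressed, at adjusted p of 0.0619 to 0.0913. At 2 weeks of induction Uqcrh changed by 0.22 (adjusted p = 0.216), and the groups overlapped. After 6 weeks of induction it gave 4933, 6033 and 5638, below every heart induced for 2 weeks (log2 change -0.65 ± 0.11 SE, adjusted p = 0.00242) and every heart before induction (log2 change -0.43, adjusted p = 0.0119). The calls at 2 days of repression against 2 weeks of induction and at 6 against 2 weeks of induction held under every alternative, while that of 6 weeks against before was lost without heart 1 of the induced group, at an adjusted p of 0.0618, with only the groups compared in the fit, and with arrays scaled to a common median, at 0.303. The call of 2 days of repression against before was also lost with both other scalings, without a trend in the model and without both hearts with Xist signal, and over all alternatives its adjusted p went up to 0.0913.

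The second passing probe set of Uqcrh, on chip 430B, was called in 0 of the 7 comparisons. It averaged 9371 ± 1350 signal units after 2 days of repression, against 10760 ± 1750 after 2 weeks of induction and 9138 ± 575 before (SD, n = 4 each), and the changes were -0.20 ± 0.17 SE (adjusted p = 0.634) and 0.03 ± 0.17 SE (adjusted p = 0.961). At 6 weeks of induction it changed by -0.27 against before (adjusted p = 0.471) and by -0.49 against 2 weeks of induction (adjusted p = 0.201). The lower signal after 2 days of repression than before was seen with the chip 430A probe set and not with this one.

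Uqcrh in the hearts repressed for 2 weeks gave 5876, 5272 and 6670.3, which overlapped with the hearts induced for 6 weeks (log2 change 0.10, adjusted p = 0.626). The change on late repression minus the change on early repression was 0.73 ± 0.16 SE (adjusted p = 0.0372), and Uqcrh was the 1 member called in this test of the difference, higher, against 0.321% of all genes called higher and 0.321% called lower. The chip 430B probe set gave 0.30 ± 0.26 SE for this difference (adjusted p = 0.796). The call was lost in 9 of the 14 fits that left out 1 heart, at adjusted p of 0.0555 to 0.0937, namely without heart 1, 2 or 3 of the 2-week induction, heart 1, 3 or 4 of the 2-day repression, heart 1 of the 6-week induction, or heart 1 or 3 of the 2-week repression. It was also lost with no filter, common-median scaling, no trend, only the groups compared or the replicate block, with an adjusted p of up to 0.142 over all alternatives. The 2 repressions differed in length as well as in the induction before them. In the other complexes with no call, the members with the largest such difference were Sdhd (log2 change 0.88, adjusted p = 0.111), Cycs (log2 change 0.57, adjusted p = 0.310), Cox4i2 (log2 change -0.41, adjusted p = 0.600) and Atp5g2 (log2 change 0.44, adjusted p = 0.205).

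Uqcrfs1 gave 9264, 8799 and 7695 signal units in hearts induced for 6 weeks, against 12524, 12921, 11502 and 12784 in those induced for 2 weeks. The gap between the groups was wider than either range (log2 change -0.53 ± 0.11 SE, adjusted p = 0.00880), and the call held without any single heart. It was also lower than the 12897, 10377, 10823 and 10574 measured before induction (log2 change -0.38, adjusted p = 0.0242), where it was lost without heart 1 before or heart 3 induced, at adjusted p of 0.0580 to 0.104. The hearts repressed for 2 weeks, at 10389, 10934 and 12843, were all above the hearts induced for 6 weeks (log2 change 0.40, adjusted p = 0.0260). This call was lost without heart 3 of the induced group or heart 2 or 3 of the repressed one, at adjusted p of 0.0514 to 0.126. Each of these calls of Uqcrfs1 was also lost with arrays scaled to a common median and with only the groups compared in the fit.

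Uqcr10 gave 8948, 8960.3 and 11173 signal units after 6 weeks of induction, against 8123, 7445, 6982 and 6930.2 before. It was the 1 member called higher there, and the groups did not overlap (log2 change 0.39, adjusted p = 0.0298). After 2 weeks of repression it gave 6989, 7080.3 and 7607, below all hearts induced for 6 weeks (log2 change -0.41, adjusted p = 0.0330). Without heart 3 of the induced group neither was called, nor the first without heart 2, 3 or 4 before, nor the second without any 1 of the 3 repressed hearts, at adjusted p of 0.0548 to 0.142 and 0.0530 to 0.146. The median change of complex III at 6 weeks of induction against before was -0.13. Cyc1 changed by 0.14 at 2 weeks of induction, -0.18 at 2 days of repression against it, and -0.04 at 2 days of repression against before. Its changes were -0.13 and -0.27 at 6 weeks of induction against before and against 2 weeks, and 0.04 and -0.10 at 2 weeks of repression against 6 weeks of induction and against before. Cyc1 was not called in any of the 7 comparisons. The same holds for Uqcrb, Uqcrc1, Uqcrc2, Uqcrq and Uqcr11, although a second bright probe set of Uqcrb was called lower at 6 against 2 weeks of induction (log2 change -0.57, adjusted p = 0.0282) and a dim one of Uqcrq at 6 weeks of induction against before (log2 change -0.75, adjusted p = 0.0379).

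Cytochrome c is the soluble carrier between complexes III and IV. Its somatic gene Cycs gave 11216, 12635, 10940.2 and 9416 signal units in hearts repressed for 2 days, against 24069, 20066, 17615 and 15137 in those induced for 2 weeks. The groups were apart, and the induced hearts differed among themselves by more than the repressed ones (log2 change -0.78 ± 0.16 SE, adjusted p = 0.00293). The call held under every alternative. All hearts before induction, at 17706, 16663, 15911 and 14458, were above those repressed for 2 days, but the adjusted p was 0.0507 (log2 change -0.55). Cycs changed by 0.23 at 2 weeks of induction (adjusted p = 0.422), -0.16 at 6 weeks of induction against before (adjusted p = 0.554) and -0.39 against 2 weeks of induction (adjusted p = 0.196). The hearts induced for 6 weeks spread widely, at 15212, 10532 and 18952, and those repressed for 2 weeks, at 11226, 12895 and 13384, lay inside that spread (log2 change -0.22, adjusted p = 0.461), with a change of -0.37 against before (adjusted p = 0.261). Both other bright probe sets of Cycs were called lower too at 2 days of repression against 2 weeks of induction (log2 change -0.56, adjusted p = 0.00868, and -0.62, adjusted p = 0.000583), and the dimmer of them also at 2 weeks of repression against 6 weeks of induction (log2 change -0.47, adjusted p = 0.00847).

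Complex IV was measured through 15 nuclear genes, among them pairs of isoforms in which 1 gene serves heart and skeletal muscle and the other most tissues. Of these 15, 3 were lower at 2 days of repression against 2 weeks of induction (5.36% of all genes). Against before, 2 were lower at 2 days of repression (1.81%), 3 at 6 weeks of induction (8.14%) and 1 at 2 weeks of repression (1.21%). In the 3 other comparisons of 2 groups 0 were called, with the largest changes in Cox6a1 at 2 weeks of induction (log2 change 0.40, adjusted p = 0.220), Cox5a at 6 against 2 weeks of induction (log2 change -0.29, adjusted p = 0.238) and Cox6a1 at 2 weeks of repression against 6 weeks of induction (log2 change -0.42, adjusted p = 0.203). The share of the chip signal taken by the 14 genes on chip 430A was 0.915% to 1.1% in hearts repressed for 2 days, against 1.02% to 1.35% in those induced for 2 weeks.

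Cox8b, the muscle isoform of the smallest subunit, fell in 3 comparisons with the hearts before induction. It gave 10797, 11915, 14165 and 12568 signal units after 2 days of repression, against 23032, 19139.5, 18073 and 17268 before induction. The groups were apart (log2 change -0.64 ± 0.14 SE, adjusted p = 0.0118), and the call held under every alternative. After 2 weeks of repression it gave 11938, 12882 and 10988, again below every heart before induction (log2 change -0.69 ± 0.15 SE, adjusted p = 0.0157). The call was lost without heart 1 or 3 of the repressed group, at adjusted p of 0.0569 to 0.0739. After 6 weeks of induction it gave 10764, 11926 and 17292, with heart 3 inside the range before induction (log2 change -0.56, adjusted p = 0.0136). This call was lost without heart 1 or 2 induced, at adjusted p of 0.0528 to 0.0803. The calls at 2 weeks of repression and at 6 weeks of induction were also lost with arrays scaled to a common median. The hearts induced for 2 weeks gave 17645, 15514, 14908 and 13199 and overlapped with those before (log2 change -0.34, adjusted p = 0.151), and no call was made at 2 days of repression against 2 weeks of induction (-0.31), at 6 against 2 weeks of induction (-0.22) or at 2 weeks of repression against 6 weeks of induction (-0.13).

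Cox6a2, another muscle isoform, gave 20506, 16046 and 16776 signal units after 6 weeks of induction, against 30181, 23724, 21749 and 23294 before. The induced hearts were all lower (log2 change -0.47, adjusted p = 0.0280), as were those repressed for 2 days, at 14929.7, 16932, 20552 and 18508 (log2 change -0.48, adjusted p = 0.0473). The first call was lost without heart 1 before or heart 2 or 3 induced, at adjusted p of 0.0707 to 0.0999, and the second in 7 of 8 fits that left out 1 heart, all but that without heart 3 of the repressed group, at 0.0591 to 0.138. A second bright probe set of Cox6a2, on chip 430B, ran from 4565 to 10405 before induction. It ran from 5301.5 to 7968.4 after 6 weeks of induction and from 3982.6 to 8262.6 after 2 days of repression, overlapping with before. Cox5a, a subunit without a muscle isoform, gave 15227, 12454 and 12472 after 6 weeks of induction, against 22325, 17899, 17341 and 18801 before. All 3 hearts were lower (log2 change -0.51, adjusted p = 0.0135), with an adjusted p of 0.0512 without heart 3 of the induced group. The 2 other bright probe sets of Cox5a changed by -0.16 (adjusted p = 0.479) and -0.14 (adjusted p = 0.684) there, and were called lower at 2 days of repression against 2 weeks of induction (log2 change -0.44, adjusted p = 0.0291, and -0.64, adjusted p = 0.0319), where the first changed by -0.03. The 3 members that fell after 2 days of repression against 2 weeks of induction were Cox6b1, which lies at the face toward cytochrome c (log2 change -0.51, adjusted p = 0.0291), Cox6a1, the common isoform beside Cox6a2 (log2 change -0.58, adjusted p = 0.0427), and Cox7a1, a muscle isoform (log2 change -0.43, adjusted p = 0.0244). For Cox7a1 all repressed hearts were below all induced ones, while for Cox6b1 and Cox6a1 the groups overlapped. Their calls were lost in turn without 4, 6 and 3 of the 8 hearts, at adjusted p of 0.0534 to 0.103, 0.0708 to 0.145 and 0.0597 to 0.0863, heart 1 of the 2-week induction being among them for all 3. The others were hearts 1, 2 and 4 of the 2-day repression for Cox6b1, hearts 2 and 3 of the induction and 1, 2 and 4 of the repression for Cox6a1, and heart 2 of the induction and 4 of the repression for Cox7a1. A second bright probe set gave -0.61 for Cox6a1 (adjusted p = 0.0130) and -0.12 for Cox6b1 (adjusted p = 0.576).

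Cox4i1, Cox4i2, Cox5b, Cox6c, Cox7a2, Cox7a2l, Cox7b2, Cox8a and Cox8c were not called in any of the 7 comparisons by the probe set that stands for them. Other bright probe sets of 4 of these genes were called lower at 2 days of repression against 2 weeks of induction. They were 3 of the 4 of Cox5b (log2 change -0.49 to -0.55), 2 of the 3 of Cox7a2l (-0.41 and -0.55), and 1 of the 2 each of Cox7a2 (-0.37, where the other gave -0.35) and Cox6c. Of Cox7a2l, 1 probe set was also called higher at 6 weeks of induction against before (log2 change 0.50, adjusted p = 0.0163) and 2 lower at 2 weeks of repression against 6 weeks of induction (-0.57 and -0.88). That of Cox7a2 was also lower at 6 weeks of induction against before (-0.42) and against 2 weeks (-0.45), and 1 of Cox5b at 2 days of repression against before (-0.46). Cox7b2 and Cox8c, known as testis isoforms, and Cox4i2, known from lung, were the dim ones, with signals in all 18 hearts of 30.0 to 68.2 for Cox7b2 on chip 430B, 646 to 1184 for Cox8c and 167 to 427 for Cox4i2. The 2 bright probe sets of Cox6c disagreed in size. At 2 days of repression against 2 weeks of induction the brighter changed by -0.11 and the other by -1.41. Over the 21 genes with more than 1 probe set of at least 1000 signal units on chip 430A, the median span between a gene's probe sets was 0.29 in that comparison, and no gene had probe sets called in opposite directions. Over all 90 passing probe sets of the members, 26 were lower and 1 higher there.

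The isoform pairs were compared within each heart, as the log2 signal of the muscle isoform minus that of the common one (Cox4i2 minus Cox4i1 in the fourth pair), so that a common factor of the array largely cancels. For Cox6a2 minus Cox6a1 the differences were 1.57, 1.44, 1.23 and 1.33 in hearts induced for 2 weeks and 1.73, 1.35 and 0.98 in those induced for 6 weeks, against 2.22, 2.14, 2.09 and 1.89 before induction. Both induced groups lay below every heart before induction. The mean shift was -0.69 at 2 weeks (two-sided exact permutation p = 0.0286, n = 4 and 4) and -0.73 at 6 weeks (exact p = 0.0286, n = 3 and 4), the smallest p that 4 against 4 or 3 against 4 hearts allow. For Cox8b minus Cox8a the differences were 1.60, 1.38, 1.54 and 1.65 in hearts repressed for 2 days, against 2.04, 1.93, 1.91 and 1.94 in hearts induced for 2 weeks and 2.62, 2.88, 2.75 and 2.26 before induction. The 3 groups did not overlap, with shifts of -0.67 at 2 weeks of induction against before, -0.42 at 2 days of repression against the induced hearts and -1.08 against before (exact p = 0.0286 each, n = 4 and 4). In the hearts repressed for 2 weeks the differences were 1.49, 1.56 and 1.53, a shift of -1.10 against before (exact p = 0.0286, n = 3 and 4). The hearts induced for 6 weeks spread from 1.32 to 2.53 and overlapped with those before (exact p = 0.0857). All pairs rest on 1 probe set per gene, and differences with other probe sets were not computed. At 2 days of repression against 2 weeks of induction the Cox8a probe set used changed by 0.11. The other bright probe set of Cox8a changed by -0.12 there, so the size of that Cox8b minus Cox8a shift depends on the choice.

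**Figure D3:**
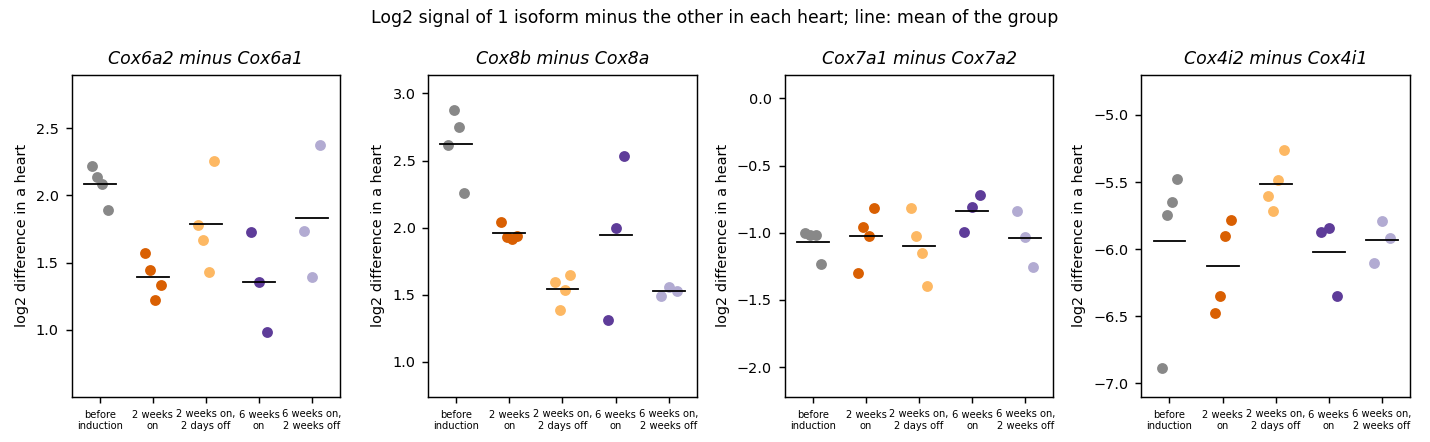
Log2 signal of 1 isoform minus that of the other in each heart (vertical axis, the same span in each panel) for 4 pairs of complex IV subunits, by group from before induction to 2 weeks of repression; lines give the group means. Cox6a2 minus Cox6a1 is lower in both induced groups than before induction, and Cox8b minus Cox8a lies at 1.38 to 1.65 in the repressed hearts, below every heart before induction.

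Of 28 tests over 4 pairs and 7 comparisons, 8 had an exact p under 0.05. After adjustment over the 28 the lowest adjusted p was 0.1, so 0 passed the correction. With these few hearts, passing it would have needed most of the 28 tests at the smallest p of 0.0286. With 3 against 3 hearts the smallest exact p is 0.1. The 2 others with an unadjusted exact p of 0.0286 were Cox7a1 minus Cox7a2 at 6 weeks of induction against before (shift 0.23) and Cox4i2 minus Cox4i1 at 2 days of repression against 2 weeks of induction (shift 0.61). Leaving out heart 1, 2, 3 or 4 before induction left 5 such results in each case. This drop was fixed by the design, since comparisons with the groups of 3 hearts then hold 3 against 3. Quantile normalization left 2. These are changes of 1 isoform relative to the other, and do not say which is more abundant.

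Cox8b minus Cox8a was lower in every repressed heart than before induction, but no isoform test passed the correction. The promoters of both genes are given from the same table with the same motifs in capitals.
Cox8b (chr7:140900397-140900696, minus strand): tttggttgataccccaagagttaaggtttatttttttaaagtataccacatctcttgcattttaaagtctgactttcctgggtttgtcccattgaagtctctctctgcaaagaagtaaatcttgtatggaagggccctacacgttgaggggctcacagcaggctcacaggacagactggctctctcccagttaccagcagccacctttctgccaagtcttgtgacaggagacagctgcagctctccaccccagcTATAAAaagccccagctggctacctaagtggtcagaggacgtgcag
Cox8a (chr19:7217567-7217866, minus strand): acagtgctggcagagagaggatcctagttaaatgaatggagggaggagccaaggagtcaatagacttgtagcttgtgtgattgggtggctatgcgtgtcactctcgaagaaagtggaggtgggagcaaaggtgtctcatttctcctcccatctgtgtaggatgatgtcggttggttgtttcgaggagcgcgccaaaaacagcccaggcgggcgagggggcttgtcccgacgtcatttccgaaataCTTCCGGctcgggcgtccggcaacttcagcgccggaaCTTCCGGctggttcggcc
The Cox8b window holds a match to the letters TATAAA and none of the other motifs, while the Cox8a window holds the ETS core at 2 places. The TATAAA match starts at position 5 after the listed start and not before it, so it is given as letters only.

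Complex V has a catalytic head of alpha (Atp5a1), beta (Atp5b), gamma (Atp5c1), delta (Atp5d) and epsilon (Atp5e) subunits, a ring of subunit c made from Atp5g1, Atp5g2 and Atp5g3, a stalk with Atp5pb, Atp5h, Atp5j and Atp5o, and small membrane subunits. At 6 weeks of induction against before, 5 of 17 genes were lower (8.14% of all genes), 3 of them head subunits. At 2 days of repression against 2 weeks of induction, 6 others were lower (5.36%), 2 of them head subunits. Relative to 6 weeks of induction, 2 were higher after 2 weeks of repression (7.19%). Against before, 1 gene was lower at 2 weeks of induction (2.90%) and 1 at 2 days of repression (1.81%). At 6 against 2 weeks of induction 1 was lower (2.82%). For 2 weeks of repression against before 0 were called, with the largest change in Atp5e (log2 change -0.50, adjusted p = 0.115).

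Atp5g2, 1 of the 3 genes that encode the same mature subunit c, gave 5344, 4839.9 and 5140.4 signal units in hearts induced for 6 weeks, against 8291, 8814, 7842 and 8763 before induction. These were the lowest of all 18 hearts (log2 change -0.72 ± 0.11 SE, adjusted p = 0.000216), and the call held under every alternative. In the hearts induced for 2 weeks Atp5g2 gave 6635, 7707, 6328 and 5556, below every heart before induction (log2 change -0.37 ± 0.10 SE, adjusted p = 0.0300). It was the 1 member called there, and the call was lost without heart 2 or 4 before or heart 1, 3 or 4 induced, at adjusted p of 0.0503 to 0.106. After 2 weeks of repression it gave 7643, 6938 and 6543, above all hearts induced for 6 weeks and below all before induction. Against 6 weeks of induction it was called (log2 change 0.46 ± 0.12 SE, adjusted p = 0.0112), a call that held without any single heart. That call was lost with arrays scaled to a common median and with only the groups compared in the fit. After 2 days of repression, at 6774, 7131, 6331 and 6236, Atp5g2 overlapped with the hearts induced for 2 weeks (log2 change 0.02, adjusted p = 0.913). Atp5g1 and Atp5g3 were not called in any comparison, and at 6 weeks of induction against before their changes were -0.17 (adjusted p = 0.496) and -0.24 (adjusted p = 0.323). That Atp5g2 changed by more than these was not tested.

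Of the head subunits, Atp5a1 gave 20599.7, 17686 and 12044 signal units after 6 weeks of induction, against 25125, 22378, 23157 and 25965 before. All induced hearts were lower and heart 3 was far the lowest (log2 change -0.56, adjusted p = 0.0215). Hearts repressed for 2 weeks gave 22822, 20830.2 and 27608, each above all hearts induced for 6 weeks (log2 change 0.53, adjusted p = 0.0429). The first call was lost without heart 4 before or heart 3 induced, at adjusted p of 0.0552 to 0.146. The second was lost without heart 3 induced or heart 1 or 3 repressed, at 0.0710 to 0.242. Each was also lost with arrays scaled to a common median and with only the groups compared in the fit. A second bright probe set of Atp5a1 changed by -0.11 (adjusted p = 0.627) and 0.06 (adjusted p = 0.820) in these comparisons. Atp5b (log2 change -0.39, adjusted p = 0.0291) and Atp5c1 (log2 change -0.44, adjusted p = 0.0294) were also lower at 6 weeks of induction than before, with no overlap of hearts. Atp5b lost its call without heart 1 before or heart 2 or 3 induced, at 0.0644 to 0.142, and Atp5c1 without heart 1 or 4 before or heart 2 induced, at 0.0533 to 0.133. Atp5o, the stalk subunit that confers sensitivity to oligomycin, was lower in the same comparison (log2 change -0.43, adjusted p = 0.0132), at an adjusted p of 0.0505 without heart 2 of the induced group. A second bright probe set of Atp5o gave 0.05 there (adjusted p = 0.872), and was lower at 2 days of repression against 2 weeks of induction (log2 change -0.83, adjusted p = 0.00361), where the first gave -0.09.

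Atp5d gave 10541, 13079, 12248 and 12215 signal units in hearts repressed for 2 days, against 24163, 16959, 16980.3 and 14969.6 in hearts induced for 2 weeks. The groups were apart (log2 change -0.58 ± 0.15 SE, adjusted p = 0.0126), and the call held under every alternative. Atp5k, a small membrane subunit, gave 9899, 12374, 11775 and 8876 after 2 days of repression, against 22153, 16902, 14249.6 and 13516 after 2 weeks of induction, also without overlap (log2 change -0.62 ± 0.18 SE, adjusted p = 0.0192). The groups overlapped for Atp5pb and not for the 3 other members lower in that comparison. These 4 were Atp5e (log2 change -0.50, adjusted p = 0.0349), the stalk subunits Atp5pb (log2 change -0.40, adjusted p = 0.0233) and Atp5j (log2 change -0.41, adjusted p = 0.0249), and the membrane subunit Atp5j2 (log2 change -0.42, adjusted p = 0.0247). Each of these 5 calls, that of Atp5k included, was lost when heart 1 of either group was left out. Atp5k also lost its call without repressed heart 4, and Atp5j2 without repressed heart 3. Atp5j lost it without heart 2 of either group. Atp5e lost it without induced heart 2 or repressed heart 2, 3 or 4, and Atp5pb without induced heart 2 or repressed heart 2 or 3. The adjusted p in these fits ran up to 0.125 for Atp5e and up to 0.0851 for the 4 others. Second bright probe sets gave -0.34 for Atp5d (adjusted p = 0.0800), -0.35 for Atp5j2 (adjusted p = 0.0719) and -0.02 for Atp5pb (adjusted p = 0.958) in that comparison. Both other bright probe sets of Atp5k were called lower (-0.81 and -0.58). That of Atp5pb was lower at 6 weeks of induction against before (log2 change -0.53, adjusted p = 0.0198), where the first changed by -0.25.

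Atp5j was also lower after 2 days of repression than before (log2 change -0.48, adjusted p = 0.0285), a call lost without heart 1 before or heart 1, 2 or 3 repressed, at adjusted p of 0.0566 to 0.0820. Atp5l, a membrane subunit, was lower at 6 than at 2 weeks of induction (log2 change -0.46, adjusted p = 0.0220), lost without heart 2 of the 2-week or heart 3 of the 6-week group, at 0.0613 to 0.0702. Atp5h, Atp5g1, Atp5g3, Atp5md and Atp5mpl were not called in any comparison. Atp5md had the largest change of complex V without a call, -0.62 at 2 days of repression against 2 weeks of induction (adjusted p = 0.102), with hearts from 3747 to 10499 over the experiment. The median change of complex V was -0.24 at 6 weeks of induction against before and -0.31 at 2 days of repression against 2 weeks of induction.

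**Figure D4:**
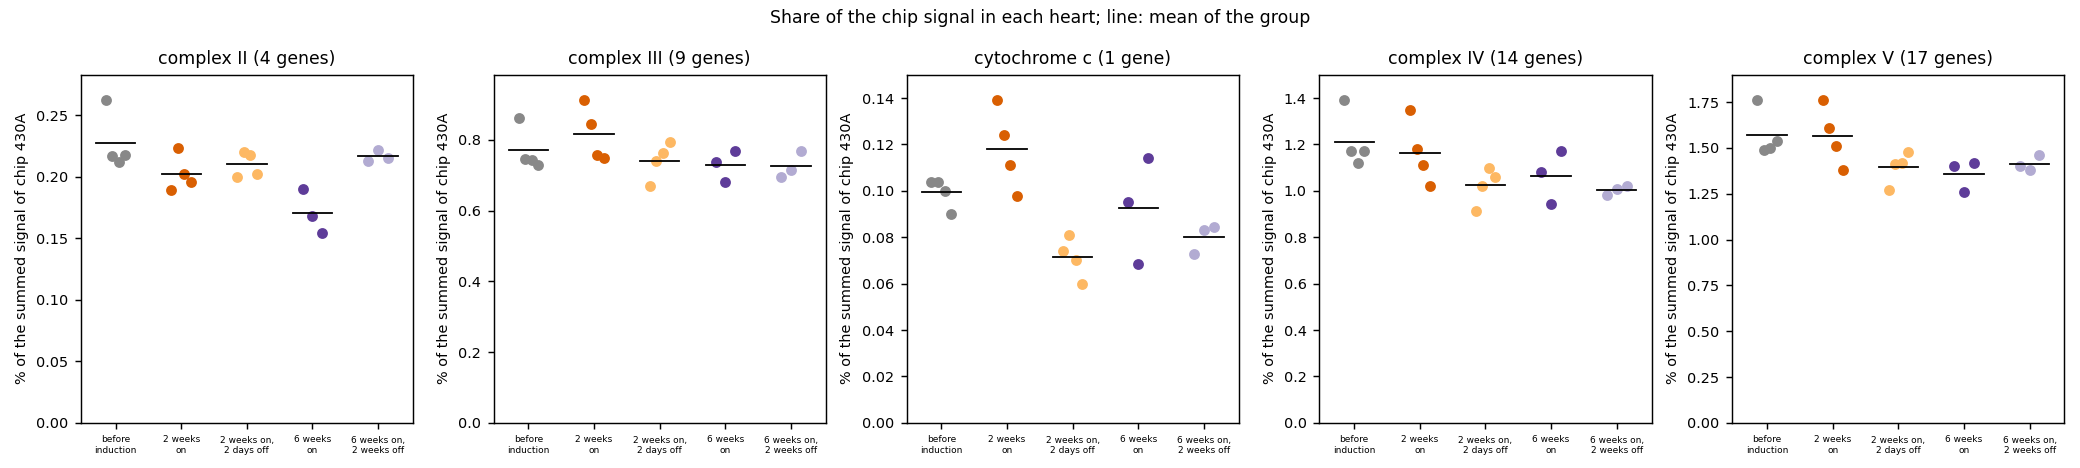
Share of the summed signal of chip 430A taken by the measured members of each complex in each heart (vertical axis, percent, from 0), by group from before induction to 2 weeks of repression; lines give the group means. Heart 1 before induction and heart 1 of the 2-week induction stand high for complexes III, IV and V, at 1.76% each for complex V, and the share of complex II in the 3 hearts induced for 6 weeks is 0.154% to 0.19%.

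With the Actb ratio as a covariate, 6 members were called at 2 days of repression against 2 weeks of induction, 10 at 6 weeks of induction against before and 2 at 2 weeks of repression against 6 weeks of induction, against 12, 14 and 6 without it. The range of that ratio on chip 430A was 1.04 to 1.18 after 2 days of repression, against 1.26 to 1.92 after 2 weeks of induction, and 0.952 to 1.22 after 2 weeks of repression, against 1.24 to 3.71 after 6 weeks of induction. The median changes of the 8 markers of heart muscle cells, -0.23 at 2 days of repression against 2 weeks of induction and -0.26 at 6 weeks of induction against before, stand beside -0.22 and -0.20 for the members. Against before, the marker medians were -0.31 after 2 days and -0.32 after 2 weeks of repression, beside -0.26 and -0.18 for the members. These 8 markers did not move alike. At 6 weeks of induction against before 1 was called lower and 1 higher (8.14% and 7.58% of all genes). Their changes there ran from -0.71 to 0.62. Ryr2 averaged 5433 signal units there, against 3520 before, and Pln 14520, against 23860. At 2 weeks of repression against 6 weeks of induction 2 were called higher (7.19% of all genes). Of 6 markers of endothelium 4 were lower at 6 weeks of induction than before, with summed signals of 3711 to 4915 against 5969 to 6986. In the late repression, at 6390 to 7267, 4 of the 6 were higher than after 6 weeks of induction. All 4 markers of smooth muscle had a positive change at 2 days of repression against 2 weeks of induction, with a median of 0.82, and 1 was called, Tagln (log2 change 0.93, adjusted p = 0.0344). Their summed signals ran from 1749 to 7080 after 2 days of repression, against 1889 to 2791 after 2 weeks of induction and 1896 to 3506 before. After 2 weeks of repression they ran from 1626 to 6019, against 4016 to 4208 after 6 weeks of induction. Of 5 markers of leukocytes, 2 were higher at 2 weeks of repression than at 6 weeks of induction, Lyz2 (log2 change 1.15, adjusted p = 0.00921) and Ptprc (log2 change 0.64, adjusted p = 0.0182), and all 5 had a positive change. The sums were 5171 to 7599 after 2 weeks of repression, against 3981 to 4781 after 6 weeks of induction, and 4585 to 7432 after 2 days of repression, against 4228 to 4682 after 2 weeks of induction. Lyz2 was also called higher at that earlier repression (log2 change 0.73, adjusted p = 0.0474).

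Of 6 listed markers of fat 4 were measured. Their sums were 8108 to 15700 after 2 days of repression, against 11090 to 14000 after 2 weeks of induction. They were 7812 to 16600 after 2 weeks of repression, against 7053 to 10570 after 6 weeks of induction. In the first of these comparisons 1 of the 4 was called lower and 0 higher (5.36% and 5.23% of all genes). The changes there ran from -0.62 to 2.42, with 2 of the 4 positive. In the second 0 were called, and all 4 changes were positive. Ucp1, the uncoupling protein of brown fat, gave 21 to 2370 signal units after 2 days of repression, against 9.2 to 50.1 after 2 weeks of induction. It gave 16.5 to 2592 after 2 weeks of repression, against 11.9 to 30.3 after 6 weeks of induction and 14.4 to 383 before induction. The repressed hearts thus spread widely, and neither repression was called against the induction before it (adjusted p = 0.0867 and 0.165). Of the 6 markers of fibroblasts 2 were higher at 6 weeks of induction than before (7.58% of all genes), the only 2 with a positive change. The changes there ran from -0.50 to 1.21, with a median of -0.03. At 2 weeks of repression against 6 weeks of induction 2 were higher (7.19%), and 4 of the 6 changes were positive. The sums were 26550 to 32630 after 6 weeks of induction and 27490 to 32260 after 2 weeks of repression, against 21900 to 27920 before. The part of RNA quality and of cell composition in the members' changes was not tested.

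Assembly factors, which build these complexes but are not part of them, were given by a list of 36 symbols, of which 32 passed the limit. The list also holds Lrpprc and the ATPase inhibitor Atpif1, which do not build the complexes themselves. Of these, 3 were higher and 0 lower at 2 weeks of induction than before, against 3.69% higher and 2.90% lower over all genes. Bcs1l, which inserts the Rieske protein into complex III, gave 1143 ± 109 signal units, against 665 ± 89.7 before (SD, n = 4 each; log2 change 0.74 ± 0.13 SE, adjusted p = 0.00180). Coa5 (log2 change 0.52, adjusted p = 0.00518), a factor of complex IV, and Sdhaf3 (log2 change 0.81, adjusted p = 0.00909), a factor of complex II, were the others. At 6 weeks of induction against before 3 were higher (7.58% over all genes), Bcs1l (log2 change 0.80, adjusted p = 0.000743), Coa5 (log2 change 0.71, adjusted p = 0.000327) and Cox19 (log2 change 0.79, adjusted p = 0.00283). The 3 lower ones (8.14% over all genes) were Cox15 (log2 change -0.72, adjusted p = 0.0237), which makes haem A, Cox18 (log2 change -0.59, adjusted p = 0.0134), which inserts a subunit of complex IV, and Lrpprc (log2 change -0.60, adjusted p = 0.0357), which stabilises mitochondrial mRNAs. The median change of the list was 0.11 at 2 weeks and -0.01 at 6 weeks. Without heart 3 of the 6-week induction the 3 lower calls were lost, that of Cox15 also without heart 4 before and that of Lrpprc without heart 2 or 3 before. With arrays scaled to a common median 7 were higher and 0 lower at 6 weeks, and without both hearts with Xist signal 2 were higher and 0 lower, while the call of Sdhaf3 at 2 weeks was lost.

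On repression for 2 days, 12 of the 32 assembly factors were lower and 0 higher than after 2 weeks of induction, against 5.36% and 5.23% over all genes, with a median of -0.24. The 5 with the lowest adjusted p were Coa3 (-0.70), Bcs1l (-0.73), Cox17 (-0.71), a copper chaperone, Cox20 (-0.45) and Uqcc2 (-0.57), with adjusted p from 0.000969 to 0.00755. The 7 others were Cox19, Sdhaf4, Sdhaf3, Coa6, Cox11, Coa5 and the ATPase inhibitor Atpif1, with changes from -0.73 to -0.33. On repression for 2 weeks, 4 were higher than after 6 weeks of induction (7.19% over all genes), Cox15 (0.91), Atpaf2 (0.91), Cox18 (0.73) and Tmem70 (0.51), and 8 were lower (5.53%), Cox19 (-0.87), Bcs1l (-0.79), Cox17 (-0.71), Pet100 (-0.64), Coa5 (-0.57), Uqcc2 (-0.56), Coa6 (-0.53) and Sdhaf1 (-0.53). Bcs1l gave 668 ± 17 there, against 1210.0 ± 270 after 6 weeks of induction (SD, n = 3 each). Against before, 3 were lower after 2 days of repression (Coa3, Cox17 and Sdhaf4) and 1 after 2 weeks (Cox17), and 1 was lower at 6 than at 2 weeks of induction (Cox18), where 1.81%, 1.21% and 2.82% of all genes were lower. At 2 days against 2 weeks of induction 7 were counted without heart 3 of the induced group and 8 at the fewest without any other heart. At 2 weeks against 6 weeks of induction 5 were counted without heart 3 of the induced group and 6 without heart 2 of the repressed one. The 7 calls lost without that induced heart were Cox15, Tmem70, Cox17, Pet100, Uqcc2, Coa6 and Sdhaf1. Cox17 lost its calls against before without most single hearts, and Cox18 its call at 6 against 2 weeks without heart 1, 2 or 3 of the 2-week or heart 2 or 3 of the 6-week group. Against before at 2 days, 1 was counted without heart 1 or 2 before or heart 1 or 4 repressed. The call of Bcs1l held in each comparison named here under both other scalings and without any single heart.

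All 17 listed transcriptional regulators of respiratory genes were measured. Ppargc1a, the coactivator that drives mitochondrial biogenesis, gave 442 ± 82.7 signal units after 6 weeks of induction, against 1024 ± 111 before (SD, n = 3 and 4; log2 change -1.13 ± 0.18 SE, adjusted p = 0.000327). It gave 575 ± 161 after 2 weeks of induction (n = 4; log2 change -0.81, adjusted p = 0.00536). It was 842 ± 110 after 2 weeks of repression, higher than after 6 weeks of induction (SD, n = 3; log2 change 0.86, adjusted p = 0.00504), while the change at 2 days of repression against 2 weeks of induction was 0.41 (adjusted p = 0.102). At 2 weeks of induction 4 of 17 were lower and 0 higher, against 2.90% and 3.69% of all genes: beside Ppargc1a, the nuclear receptors Ppara (log2 change -1.53, adjusted p = 0.000862) and Esrrb (log2 change -1.03, adjusted p = 0.00528) and the mitochondrial transcription factor Tfb2m (log2 change -0.51, adjusted p = 0.00688). Without both hearts with Xist signal the calls of Ppargc1a, Esrrb and Tfb2m at 2 weeks were lost, at adjusted p of 0.0519 to 0.0996, and that of Tfb2m was lost with median scaling too. In the next comparison, at 6 weeks of induction 4 were lower (8.14% of all genes), Ppargc1a, Esrrb (-1.14), Tfb2m (-0.66) and Tfb1m (-0.56), and 2 higher (7.58%), the mitochondrial RNA polymerase Polrmt (log2 change 0.97, adjusted p = 0.00100) and the estrogen-related receptor Esrra (log2 change 0.55, adjusted p = 0.0308).

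At 2 days of repression against 2 weeks of induction 3 regulators were higher (5.23% of all genes), Ppara (log2 change 1.22, adjusted p = 0.00270), the muscle coactivator Perm1 (log2 change 0.85, adjusted p = 0.0121) and Esrrg (log2 change 0.54, adjusted p = 0.0369). Polrmt was lower (-0.65), as was Pprc1 (-0.51), where 5.36% of all genes were lower. At 2 weeks of repression against 6 weeks of induction Ppargc1a and Perm1 (log2 change 0.84, adjusted p = 0.0245) were higher (7.19% of all genes). The 3 lower regulators (5.53%) were Polrmt (log2 change -1.03, adjusted p = 0.00137), Esrra (log2 change -0.80, adjusted p = 0.00602) and Ppargc1b (log2 change -0.62, adjusted p = 0.0418). Ppara was higher at 6 than at 2 weeks of induction (log2 change 1.15, adjusted p = 0.0141), a call with an adjusted p of 0.0808 without heart 1 of the 6-week group, and Tfb2m was lower than before in both repressed groups (-0.57 and -0.59). Over all genes 2.35% were higher at 6 than at 2 weeks of induction, and 1.81% and 1.21% lower than before in the repressed groups. The calls of Ppargc1a and Polrmt at 6 weeks of induction and on late repression held under both other scalings and without any single heart, while other calls were lost. Esrra at 6 weeks was lost without heart 2, 3 or 4 before or heart 1 or 3 induced, and Tfb1m without heart 2 before or heart 1 or 2 induced, both also without the 2 hearts with Xist signal. At 2 days of repression Esrrg was lost without induced heart 1, 3 or 4 or repressed heart 1, 2 or 4, and Perm1 without induced heart 3 or repressed heart 1. At 2 weeks of repression Perm1 was lost without induced heart 2 or 3 or repressed heart 1 or 3, Ppargc1b without induced heart 1 or 3 or any repressed heart, and Tfb2m against before without repressed heart 1. No correlation of these regulators with the members was computed.

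Of 8 genes for ATP export and phosphocreatine, Vdac3, a pore of the outer membrane, was lower at both repressions relative to the induced hearts (log2 change -0.59, adjusted p = 0.00663 at 2 days and log2 change -0.51, adjusted p = 0.0315 at 2 weeks). Vdac2 was lower at 6 weeks of induction than before (log2 change -0.46, adjusted p = 0.0243). In each of these 3 comparisons 1 of the 8 was thus lower, where 5.36%, 5.53% and 8.14% of all genes were lower. The others, Slc25a3, Slc25a4, Slc25a5, Vdac1, Ckmt2 and Ckm, were not called in any of the 7 comparisons. The call of Vdac3 at 2 weeks was lost without heart 1 or 3 of the 6-week induction or heart 2 or 3 of the repression, and that of Vdac2 without heart 4 before or heart 3 induced and without both hearts with Xist signal. For comparison, of 44 genes of complex I with Nduf symbols, 13 were lower and 1 higher at 2 days of repression against 2 weeks of induction (5.36% and 5.23% of all genes). At 6 weeks of induction against before 10 were lower and 1 higher (8.14% and 7.58%), and at 2 weeks of repression against 6 weeks of induction 6 were lower and 3 higher (5.53% and 7.19%). The medians in these 3 comparisons were -0.26, -0.08 and -0.07. Scaled to a common median, the 6-week count for complex I was 2 lower and 4 higher, and quantile normalization gave 7 lower and 9 higher on late repression. Without heart 3 of the 6-week induction, 7 were called at 6 weeks against before and 3 on late repression, and without heart 1, 2 or 3 of the late repression 3, 4 and 4 were called there. A difference between complex I and the other complexes was not tested.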

How the data were processed

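RNA from 18 hearts went onto a pair of Affymetrix chips, 430A and 430B. The deposited values are one signal intensity per probe set, computed with MAS5 per the submitters' processing notes, which give no version, and were used as deposited on their linear scale. The arrays' number limits the precision. Signals were taken as log2(signal + 10% of the chip's 2% trimmed mean), and probe sets whose mean signal was under 20% of the trimmed mean were left out. Each chip was fitted with limma 3.58.1 (lmFit and eBayes with a trend) in R 4.3.3, all 5 groups in one model, and p-values were adjusted by Benjamini-Hochberg over all probe sets tested (15565 on chip 430A and 17519 on chip 430B), with a threshold of 0.05. The brightest passing probe set on chip 430A stands for a gene, or that on chip 430B where none passes on 430A. Isoform pairs were compared by exact permutation tests over hearts. The labels' replicate numbers gave no sign of pairing the hearts. On chip 430A, correlations of the deviations of same-numbered hearts ran from -0.156 to 0.325, with a median of -0.02. Those of other-numbered hearts ran from -0.257 to 0.346, with a median of 0.004. Such correlations cannot show whether the numbers mark a shared batch. Hearts are individual mice, and litter or day of collection was not used here.

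The text names every called member, the 5 with the smallest adjusted p in a comparison in full, the member with the largest change where a complex had none called, the complex II genes, Cyc1, Cycs, the isoform pairs and Akt1. The members and lists were chosen with earlier results of these data known. Alternatives changed the offset, filter, scaling, variance model, hearts in the fit, replicate block, RNA quality covariate and probe set, and left out hearts. Promoters came from a RefSeq table of GRCm38.p6. All 46 members were matched by gene ID.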

Additional observations from a re-analysis of the deposited data

Results flagged for a closer look

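Among 138 sets of 4 hearts, each 1 member in 1 group, 12 had a heart apart from the other 3 by Dixon's criterion, and chance flags about 1 in 20 groups. Heart 1 before induction was high in 7 of the 12, with Uqcrc1 at 21321 signal units against 16869 to 17462 in the other 3 hearts, Atp5b at 21303.6 against 17792 to 18341, Atp5e at 9719 against 7850.2 to 7900.1, and Atp5g3 at 28173.8 against 22264 to 23056. In the same heart Atp5h gave 19801.8 against 14091 to 14359, Atp5j 18262.9 against 13325 to 13808, and Atp5md 7958.1 against 4871 to 5264. Heart 1 of the 2-week induction was low for Sdha, at 5544.2 against 6715 to 6808, and high for Uqcr11, at 14903.3 against 12112 to 12328. Heart 4 of the 2-day repression was low for Cox7a1, at 7241.9 against 8803 to 8870.5, and high for Atp5pb, at 11491.9 against 9239 to 9607, and heart 3 of that group was high for Cox7a2l, at 3428.3 against 2859 to 2955.

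The change of Uqcrh on late repression minus its change on early repression was 0.7266 on the log2 scale, with an adjusted p of 0.0372 in the limma fit of that difference. Its chip 430B probe set gave 0.30 (adjusted p = 0.796).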

How the results depend on the processing

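No named call changed sign under an alternative that was run. These did not cover every probe set of a gene, and other probe sets of some members, such as Atp5o, Uqcrh and Sdhd, had the other sign in comparisons given above. On chip 430B, the mean signals of less bright probe sets of Sdha, Atp5g2 and Atp5j2 also moved against a call. With arrays scaled to a common median, the members called were 0 (2 weeks of induction against before), 1 (2 days of repression against before), 3 (6 weeks of induction against before), 1 (6 against 2 weeks of induction), 2 (2 weeks of repression against 6 weeks of induction), 0 (2 weeks of repression against before) and 0 (late minus early). With only the groups compared in the fit they were, in that order, 0, 10, 4, 1, 0, 1 and 0. With no trend they were 0 at 2 weeks of induction, 1 at each repression against before and 0 for late minus early. Quantile normalization gave 2 at 2 weeks of induction, 9 at 6 against 2 weeks of induction, 13 at 2 weeks of repression against 6 weeks of induction, and 2 isoform differences. The Actb covariate gave 2 at 2 weeks of induction, 6 at 2 days of repression against 2 weeks of induction, 2 at 2 days of repression against before and 2 at 2 weeks of repression against 6 weeks of induction. With no filter, 2 days and 2 weeks of repression against before gave 2 and 1, and late minus early 0, and a filter at 50% gave 7 for the first. Without both hearts with Xist signal the counts were 0, 2 and 7 for 2 weeks of induction, 2 days of repression and 6 weeks of induction against before, and 2 isoform differences, where p under 0.05 is out of reach with 2 hearts before induction.

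Leaving out 1 heart gave 0 to 1 calls at 2 weeks of induction, 5 to 14 at 2 days of repression against it, 1 to 4 at 2 days of repression against before, 6 to 13 at 6 weeks of induction against before, 3 to 8 against 2 weeks, 2 to 7 at 2 weeks of repression against 6 weeks of induction, 0 to 2 against before, 0 to 2 for late minus early and 5 to 8 isoform differences. An isoform comparison left with 3 against 3 hearts cannot reach an exact p under 0.05. With the replicate block, late minus early gave 0 calls and the other counts stayed within 1.5 times. Counting a gene by any of its probe sets, an alternative chosen after seeing the data, gave 18 at 2 days of repression against 2 weeks of induction and 18 at 6 weeks of induction against before. Apart from the fits named, the cause of these shifts was not tested.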
